A study of Salix linearistipularis with 24 samples.

Results

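The steadiest well-expressed clusters were the 200 clusters of assembled root transcripts of the dioecious willow *Salix linearistipularis* whose summed level differed least between 8 groups of roots. They were chosen on the measured values. The contigs of each cluster were summed, the 3 libraries of each group were averaged, and clusters with a mean of at least 10 FPKM (fragments per kilobase of transcript, relative to all mapped fragments) in all 8 groups were ordered by a score, the highest minus the lowest log2 group mean. Of 20753 clusters, 3618 passed the level limit after 2 clusters were left out by the rule, and the 200 lowest scores made up 5.53% of these. The whole table held 139844 genes when clusters and single unigenes were counted together.

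The 8 groups, with 3 libraries each, were roots of female cuttings in control water and after 6, 12 and 24 h of 100 mM NaCl, and roots of male cuttings in control water and after the same times. All cuttings grew in hydroponics, and no group carried a transgene or another agent. The sample labels describe 1 female and 1 male individual propagated to cuttings, whereas the paper describes trees of several populations and independent experiments, so the sexes cannot be told apart from the plants they came from. P-values measure only the spread between these libraries, which may be technical, and the sources used here do not give the sampling hour of the controls. No root cell type marker was annotated in the sources used here, so the tissue label could not be checked, and in such bulk RNA fewer cells of a type cannot be told apart from less RNA per cell.

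High NaCl exposes roots to osmotic stress and to sodium ions, and plants answer with calcium signalling, sodium/hydrogen exchange, antioxidant enzymes and new transcription. Against such a background, transcripts of steady abundance are used as references in quantitative PCR, a role in which actin genes are common. In an assembly made without a genome, a cluster gathers contigs that share sequence, which may be splice forms, alleles or close gene copies, and these could not be separated here because no genome or annotation of the rows was used. A cluster can therefore be steady in its sum while its contigs are not, and both levels are given below.

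The libraries had summed FPKM between 663314 and 778064, and since the sources used here give no read numbers, their depth is unknown. The 200 clusters took between 1.22% and 1.63% of a library's summed FPKM. The male 6 h libraries stood apart from each other. A steady cluster changed a median 33.6% to 36.3% of its sum from one contig to another between pairs of male 6 h libraries, against 7.62% to 10.3% between libraries of the other 7 groups. In this contig make-up, male 6 h replicate 1 was closest to the male control mean (15.8%), replicate 2 to the male 24 h mean (18.5%) and replicate 3 to the female 6 h mean (28.0%). The choice and the counts of summed clusters called are given below with and without male 6 h. So are the scores printed for members with their highest mean in that group. The other values include male 6 h unless stated.

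The scores of the 200 clusters ran from 0.304, a 1.23-fold span between the highest and the lowest group mean, to 0.824, a 1.77-fold span, with a median of 0.711. The 3418 other clusters past the level limit had a median score of 2.01, a 4.01-fold span, and reached 9.13. Scores under 0.5 were found for 20 clusters, under 0.6 for 44, and under 0.7 for 93. The last clusters inside were CL1292 (0.823), CL2124 (0.824) and CL1414 (0.824), and the first outside were CL12617 (0.825), CL1980 (0.826) and CL728 (0.826), so the limit fell in a continuous run of values.

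**Figure D1:**
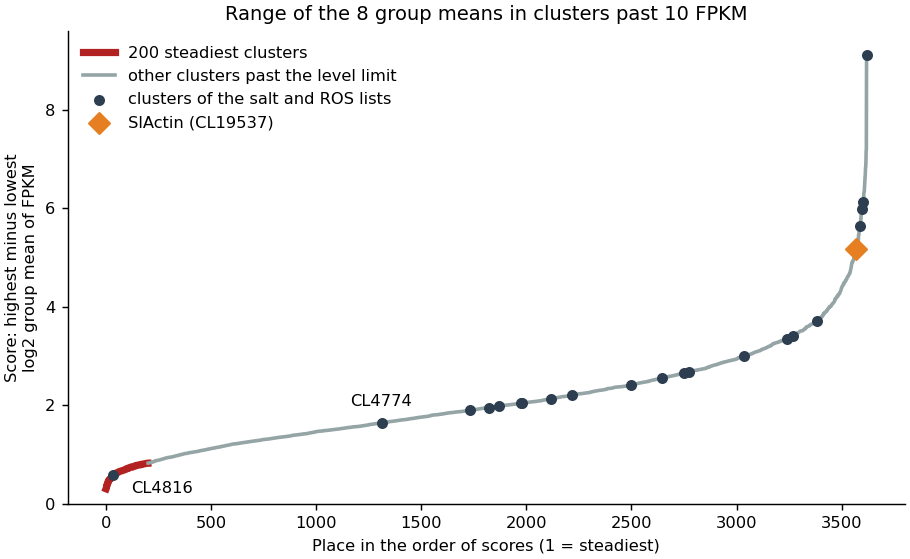
Score (highest minus lowest log2 group mean, y axis) against place in the order of scores (x axis) for the 3618 clusters past 10 FPKM. The 200 steadiest clusters (red) end at 0.824, the clusters of the salt and reactive oxygen lists (dark points) lie above them with the exception of CL4816, and SlActin (orange) stands at 5.17.

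CL12622 had the lowest score (0.304, and 0.288 without male 6 h) and 18 contigs. Its FPKM was 60.6, 61.9 and 58.0 in female control roots, 69.3, 67.9 and 69.1 at 6 h of NaCl, 67.3, 66.2 and 62.5 at 12 h, and 59.2, 56.2 and 59.7 at 24 h. In male roots it was 68.8, 72.7 and 67.7 in the control, 82.8, 54.6 and 74.1 at 6 h, 65.3, 68.0 and 66.8 after 12 h, and 55.2, 57.8 and 58.3 at 24 h. Both the highest and the lowest of its 24 libraries belonged to male 6 h, and all 12 female libraries lay between 56.2 and 69.3 FPKM.

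CL11447 followed with a score of 0.314 and 4 contigs. In female roots it had 17.3, 16.5 and 17.6 FPKM in the control, 16.1, 16.1 and 16.0 at 6 h, 14.4, 13.9 and 14.8 after 12 h, and 14.1, 13.4 and 13.8 at 24 h. In male roots it had 15.4, 16.5 and 14.9 FPKM in the control, 15.9, 14.4 and 13.4 at 6 h, 12.6, 15.4 and 15.6 after 12 h, and 14.7, 15.8 and 15.5 at 24 h. The female libraries at 12 and 24 h lay below all 3 female control libraries, while all male groups overlapped the male control.

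CL3462 (score 0.404) had the narrowest span over the 24 single libraries, 0.477 on the log2 scale. It had 13.1, 13.3 and 13.9 FPKM in female roots at 6 h against 17.5, 16.1 and 16.9 in female control roots, and 15.6, 16.1 and 16.6 in male roots at 6 h against 17.3, 17.7 and 17.3 in male control roots. It was one of the members whose male 6 h libraries lay close together. The other clusters among the 10 lowest scores were CL4012 (0.346), CL10435 (0.36), CL6053 (0.36), CL6737 (0.378), CL6808 (0.425), CL9196 (0.426) and CL20409 (0.428). CL10435 and CL20409 had their highest mean in male 6 h, and without that group their scores were 0.256 and 0.32. The means of these 7 over the 8 groups lay between 11.9 FPKM (CL10435) and 74.1 FPKM (CL20409). None of these clusters is named by a protein match in the sources used here.

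The steady clusters were of moderate abundance. Their mean over the 8 groups ran from 11.4 to 398 FPKM with a median of 33.9, against a median of 50.3 and a maximum of 3657 FPKM for the other clusters past the limit. The limit applied to the lowest group mean, so a cluster with a wider span needed a higher mean to pass. The difference between these medians is therefore not independent of the rule. Means above 100 FPKM were found for 19 steady clusters, means below 20 for 41, and means between these for 140. Both sets had a median of 11 contigs in a cluster, with 2 to 101 contigs in the steady clusters and 2 to 235 in the others. FPKM is scaled to transcript length, so these levels can be set beside each other, with the reservation that a sum over contigs of different lengths depends on how reads were shared among them.

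CL5694 was the most abundant member (398 FPKM, score 0.623, 14 contigs). Its FPKM was 498, 508 and 514 in female control roots, 322, 332 and 334 at 6 h, 343, 347 and 344 after 12 h, and 335, 324 and 335 at 24 h. In male roots it was 409, 417 and 411 in the control, 581, 373 and 364 at 6 h, 419, 422 and 424 after 12 h, and 394, 392 and 409 at 24 h. All female NaCl libraries lay below the female control, whereas the male NaCl libraries lay on both sides of the male control, and male 6 h replicate 1 was the highest of all 24.

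CL1383 (283 FPKM, score 0.442, 35 contigs) had 299, 296 and 293 FPKM in female roots at 6 h, 330.5, 325 and 322 after 12 h, and 284, 275 and 275 at 24 h, against 231, 243 and 246 in female control roots. CL5947 (236 FPKM, score 0.568), CL11745 (231 FPKM, score 0.758) and CL1250 (223 FPKM, score 0.813) followed. The highest group mean of CL5947 was in female control roots (294 FPKM), while that of CL11745 (313 FPKM) and of CL1250 (284 FPKM) was in male roots at 24 h. The most abundant members thus had their highest means in different groups.

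The 5 members with most contigs were CL1033 (101 contigs, score 0.641), CL356 (70, score 0.757), CL2378 (65, score 0.782), CL1125 (56, score 0.819) and CL14659 (55, score 0.723). CL1033 averaged 74.9 FPKM in female roots at 6 h, 79.8 after 12 h and 65.7 at 24 h, against 72.9 in female control roots. It averaged 74.97 FPKM in male roots at 6 h, 51.2 after 12 h and 65.2 at 24 h, against 67.1 in male control roots. CL1033, CL356 and CL1125 had their lowest mean in male roots at 12 h, CL2378 in female roots at 24 h and CL14659 in male roots at 24 h.

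Which group was highest or lowest differed from member to member. The highest mean was in female control roots for 48 members, at 6, 12 and 24 h in female roots for 13, 37 and 7, in male control roots for 40, and at 6, 12 and 24 h in male roots for 22, 18 and 15. The lowest mean was in female control roots for 20 members, at 6, 12 and 24 h in female roots for 29, 9 and 28, in male control roots for 21, and at 6, 12 and 24 h in male roots for 5, 45 and 43. The median deviation of a member from its own mean over the groups was highest in female roots at 12 h (0.106) and lowest in male roots at 24 h (-0.103). Among the other clusters it was highest in male control roots (0.473) and lowest in male roots at 12 h (-0.542).

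**Figure D2:**
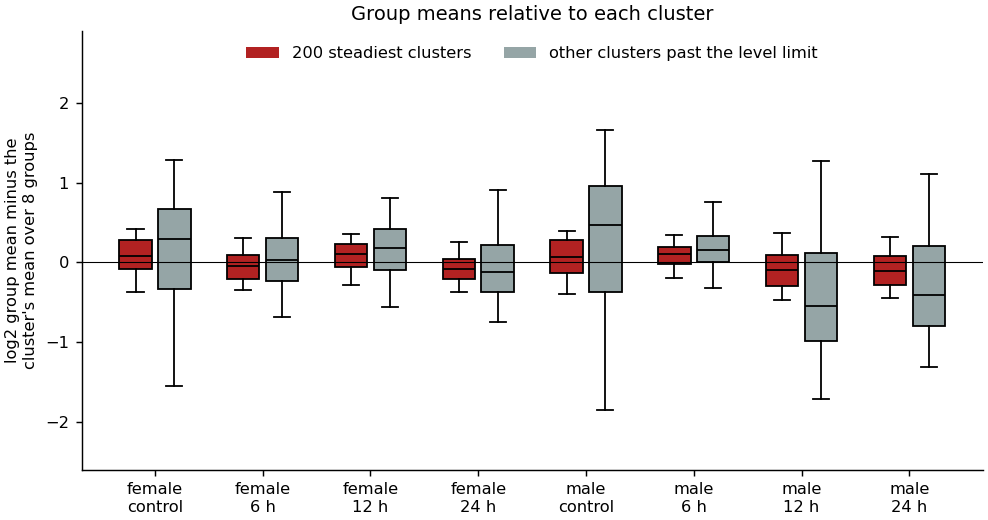
Log2 group mean minus the mean of the 8 log2 group means of each cluster (y axis) in the 8 groups (x axis) for the 200 steadiest clusters (red) and the 3418 other clusters past the level limit (grey). Boxes show quartiles and median, whiskers the range from the 5th to the 95th percentile; the narrow red boxes follow from the choice of the clusters, and the grey medians run from 0.473 in male control to -0.542 at male 12 h.

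The 3 libraries of a group lay close together for the steady clusters, except in male 6 h. The median log2 span between the 3 libraries was 0.084 to 0.102 in the 7 other groups, and 0.077 to 0.102 for the other clusters in these groups. In male 6 h it was 0.533 for the steady clusters and 0.993 for the others, and a span over 1 was found for 16 steady clusters (8.0%) and for 1697 other clusters (49.7%). No single library was low or high throughout, since replicates 1, 2 and 3 of male 6 h were the highest for 75, 53 and 72 members and the lowest for 57, 63 and 80. The rule averaged these libraries before scoring, so a wide spread in them did not by itself exclude a cluster. Such a spread was rarer among the steady clusters than among the others, but the same libraries entered the means that the rule used. This difference is thus not independent of the choice.

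CL14347 had the widest male 6 h spread among the members, with 21.8, 18.7 and 8.08 FPKM, against 23.6, 22.2 and 21.3 in male control roots. CL12247 had 61.9, 46.0 and 24.0 FPKM at male 6 h, against 43.3, 41.4 and 41.9 in male control roots. CL8599 had 27.2, 15.2 and 11.5 FPKM at male 6 h, against 22.6, 23.1 and 22.3 in male control roots. Male 6 h replicate 3 was the lowest in all 3 of these clusters. Over the 24 single libraries the span of a member had a median of 0.885 and a maximum of 1.84 (CL14347), and it was under 1 for 149 members. Over the 21 libraries without male 6 h the median was 0.808 and the span was under 1 for 194 members.

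**Figure D3:**
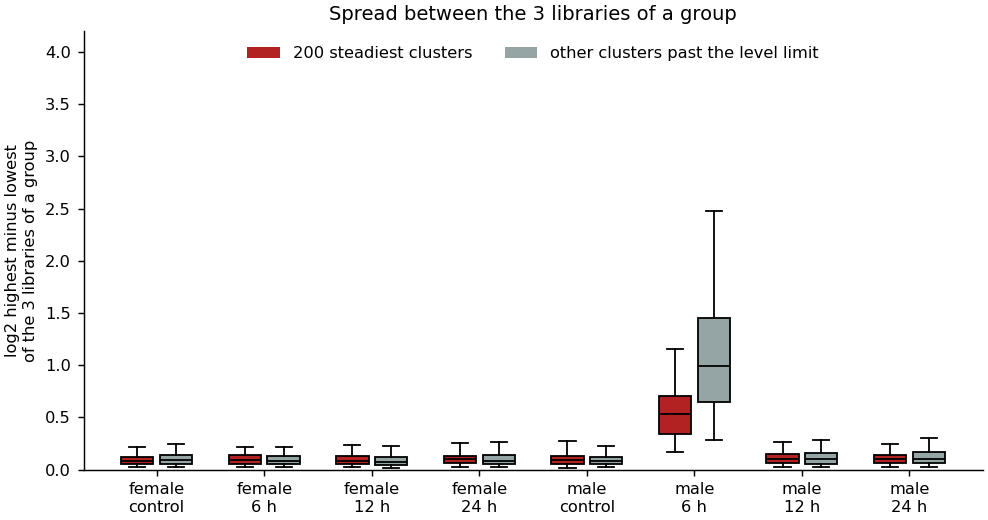
Log2 highest minus lowest of the 3 libraries of a group (y axis) in the 8 groups (x axis), for the 200 steadiest clusters (red) and the other clusters past the level limit (grey). Boxes show quartiles and median, whiskers the 5th to the 95th percentile; the medians lie near 0.1 in 7 groups and at 0.533 (steady) and 0.993 (others) in male 6 h.

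As a description, the rule was also applied to pairs of replicate numbers, and the score was taken in the replicate left out. The choice shared 181, 179 and 174 clusters with the 200 when replicate 1, 2 or 3 was held out. In the held-out replicate the chosen clusters had a median score of 0.77, 0.75 and 0.776, whereas the other clusters had 2.03, 2.03 and 2.05. Scores over 1 were found for 31, 9 and 26 of the 200 chosen. Without male 6 h the held-out medians were 0.704, 0.732 and 0.723. Of the 200 chosen, 142, 154 and 148 were also among the 200 lowest scores of the held-out replicate. The replicates came from the same groups, and outside male 6 h the libraries of a group lay close together. Low scores in the held-out replicate thus followed largely from the choice. Nothing here shows the same steadiness in other plants, times or doses.

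At the level of the summed clusters, each NaCl group was compared with the control of its sex, and female with male control roots, using limma on log2(FPKM + 0.5) with Benjamini-Hochberg adjustment over 95202 genes that had at least 1 FPKM in at least 3 libraries. All 200 clusters were tested. The rule used these comparisons, so the calls (adjusted p of at most 0.05) are a description. In female roots at 6 h, 101 members were called, 27 higher and 74 lower, where 60.5 percent of all tested genes were called. At 12 h 70 were called, 37 higher and 33 lower (56 and 13 after scaling by the median of ratios), where 30.9 percent of all genes were called. At 24 h 103 were called, 27 higher and 76 lower (104 and 2 after scaling), where 43.0 percent of all genes were called. The steady clusters thus included members with small changes that exceeded the pooled spread between libraries.

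In male roots at 6 h, 64 members were called, 39 higher and 25 lower (130 and 0 after scaling), where 39.6 percent of all genes were called. Fitted on the male 6 h and male control libraries alone, limma called 0 of the 200 at this time, with 11 at an unadjusted p under 0.05. Of all 85900 genes in that fit, 10420 were called. The pooled model understates the spread of male 6 h, so its calls at this time do not stand on those libraries alone. At 12 h 105 were called, 28 higher and 77 lower (169 and 0 after scaling), where 57.0 percent of all genes were called. At 24 h 121 were called, 40 higher and 81 lower (199 and 0 after scaling), where 45.7 percent of all genes were called. At 12 and 24 h the lower members outnumbered the higher ones on the deposited scale and not after scaling. Between female and male control roots 62 members were called, 33 higher and 29 lower in females (110 and 3 after scaling), where 48.6 percent of all genes were called. After scaling, 26741 and 34604 of 92855 genes were called at 12 and 24 h in female roots. In male roots 31393, 51973 and 40582 genes were, and 40989 between the controls. Without the male 6 h libraries the model called 154, 145 and 156 members at 6, 12 and 24 h in female roots. It called 160 and 162 at 12 and 24 h in male roots, and 133 between the controls. Of all 95202 genes this model called 66177, 42213 and 52506 in female roots, 60618 and 50148 in male roots, and 56527 between the controls.

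The size of these ratios was fixed by the choice, since no 2 group means of a member lie more than 0.824 apart on the log2 scale, so it is given only as a description. The median absolute log2 ratio was 0.444 over called values and 0.137 over values not called, and the median standard error of the pooled model, which understates that of male 6 h, was 0.11.

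The direction of these changes depended on the scale. With FPKM as deposited, the median log2 ratio of the members was -0.13, -0.01 and -0.17 at 6, 12 and 24 h in female roots, -0.01, -0.18 and -0.17 in male roots, and 0.02 between female and male control roots. The other clusters past the limit had medians of -0.23, -0.15 and -0.47 in female roots, -0.41, -1.05 and -0.85 in male roots, and -0.15 between the controls. The members' medians were thus nearer 0 than those of the other clusters, as the choice required. Over all tested genes the medians were 0.14, -0.02 and -0.30 in female roots, 0, 0 and -0.08 in male roots, and 0.05 between the controls. After scaling each library by the median of ratios over genes above 0 in every library, with factors from 0.644 to 1.51, the members' medians were -0.07, 0.13 and 0.35 in female roots, 0.43, 0.64 and 1.03 in male roots, and 0.33 between the controls. Scaling moved the median of all tested genes to 0.16, 0 and -0.07 in female roots, 0.13, 0.15 and 0 in male roots, and 0.15 between the controls. Only 10 of the 200 clusters were chosen when the rule was applied to the scaled values, so steadiness on the deposited scale was not steadiness on this one.

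CL1563, CL2705 and CL3466 had the smallest adjusted p-values among the members. CL1563 (score 0.803) had 34.6, 35.8 and 34.1 FPKM in male roots at 12 h, against 60.8, 58.5 and 62.8 in male control roots, a log2 ratio of -0.79 (SE 0.0721, limma adjusted p = 1.1e-08). The 3 libraries lay below the control without overlap, and after median-of-ratios scaling this ratio was 0.03 (limma adjusted p = 0.921). CL2705 (score 0.767) had 126.5, 129 and 118 FPKM in male roots at 24 h, against 75.7, 71.4 and 72.2 in male control roots, a log2 ratio of 0.76 (SE 0.072, limma adjusted p = 2.25e-08). CL3466 (score 0.789) had 88.9, 90.2 and 86.2 FPKM in male roots at 12 h, against 51.8, 52.1 and 49.7 in male control roots, a log2 ratio of 0.78 (SE 0.0796, limma adjusted p = 5.08e-08). The NaCl libraries of CL2705 and CL3466 lay above the control without overlap, and scaling raised these ratios to 1.98 and 1.61.

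The sum over contigs was fixed by the rule, but the single contigs were not. The 200 clusters held 3157 contigs, of which 2454 had at least 1 FPKM in at least 3 libraries and were tested among 181249 rows. A contig was called where its level changed at least 2-fold and limma's Benjamini-Hochberg adjusted p did not exceed 0.05, the limits of the study's methods. In female roots at 6 h 1005 contigs (41.0%) were called, 478 higher and 527 lower, where 49.7 percent of all rows were called. At 12 h 103 (4.2%) were called, 84 higher and 19 lower, where 18.5 percent of all rows were called. At 24 h of NaCl 222 (9.05%) were called, 126 higher and 96 lower (282 and 27 after scaling), where 28.0 percent of all rows were called. After scaling, 42983 of 177864 rows were called at this time. Here and in the comparisons below, the share of contigs called on the deposited scale was below that of all rows. The sums of these contigs were chosen to change little, so these shares are not independent of the choice.

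In male roots at 6 h 540 contigs (22.0%) were called, 288 higher and 252 lower (378 and 94 after scaling), where 31.7 percent of all rows were called. Fitted on male 6 h and male control alone, 40 contigs were called, and 13981 of all 168993 rows. Without replicate 2 of every group the pooled model called 341 contigs, and 47183 of all 143731 rows. Without replicate 3 it called 312 contigs, and 42508 of all 142590 rows. At 12 h 1051 (42.8%) were called, 552 higher and 499 lower (850 and 268 after scaling), where 51.5 percent of all rows were called. At 24 h 1078 (43.9%) were called, 538 higher and 540 lower (1029 and 257 after scaling), where 44.9 percent of all rows were called. Between female and male control roots 944 contigs (38.5%) were called, 466 higher and 478 lower in females (523 and 333 after scaling), where 41.4 percent of all rows were called. After scaling 45326, 85567 and 73827 of 177864 rows were called at 6, 12 and 24 h in male roots, and 65243 between the controls. Of 2484 member contigs tested after scaling, 1286 were called at male 24 h, a larger share than of all rows.

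Many steady clusters held contigs called in opposite directions at the same time. In female roots at 6 h 145 members (72.5%) had at least 1 contig called higher and 1 called lower, and 64.9 percent of the other clusters past the limit did. At 12 h 6 members (3.0%) did, and 5.56 percent of the others. At 24 h 25 members (12.5%) did, and 11.6 percent of the others. Such clusters were common in female roots at 6 h and few at the later times. In male roots at 6 h 93 members (46.5%) did, and 36.5 percent of the others, but only 2 members and 74 of the others did when male 6 h and male control were fitted alone. At 12 h 148 members (74.0%) did, and 53.3 percent of the others. At 24 h 149 members (74.5%) did, and 57.0 percent of the others. In male roots they were common at 12 and 24 h, and the count at 6 h depended on the pooled model. Between female and male control roots 141 members (70.5%) did, and 67.1 percent of the others. A member's sum was held within narrow limits by the rule, so contigs that moved far had to be offset by others, and nothing particular to the steady clusters is read from these counts.

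CL12622, the cluster of lowest score, changed its contigs most between female roots at 6 and 12 h, where 77.3% of its sum moved between contigs. Contig 18 carried 47.3% of the cluster in female control roots. It had 0.21, 0 and 0 FPKM in female roots at 6 h, against 28.6, 29.1 and 27.7 in female control roots, a log2 ratio of -5.69 on the log2(FPKM + 0.5) scale (SE 0.462, limma adjusted p = 1.73e-09). Contig 4 had 20.4, 19.2 and 19.97 FPKM in female roots at 6 h, against 0.01, 0 and 0 in female control roots, and carried 28.9% of the sum. At 12 and 24 h of NaCl, contig 18 again stood at 29.2 to 32.7 and 26.6 to 29.3 FPKM in female roots.

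In male roots contig 16 of CL12622 had 23.0, 24.0 and 24.1 FPKM at 24 h (41.5% of the sum), and 0 in each male control and each male 12 h library. At male 6 h it had 0, 22.5 and 0 FPKM, so replicate 2 stood with the male 24 h libraries. Contig 4 had 15.5, 0 and 21.2 FPKM at male 6 h, against 8.65, 9.5 and 8.34 in male control roots. The sum of the 18 contigs in these same 3 libraries, 82.8, 54.6 and 74.1 FPKM, differed far less than contigs 4 and 16 did.

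CL11447 showed the same with 4 contigs. Contig 1 carried 84.0% of the cluster in male roots at 12 h and 70.3% in male control roots, and was listed at 0 in all 3 male libraries at 24 h. Contig 2 had 12.8, 12.5 and 13.4 FPKM in male roots at 24 h (84.2% of the sum), against 4.38, 4.0 and 4.23 in male control roots, a log2 ratio of 1.51 (SE 0.286, limma adjusted p = 0.000143). Contig 3 carried 48.9% in female control roots and 0.17% in male control roots, where it had 8.29, 7.71 and 9.1 FPKM in females and 0.08, 0 and 0 in males. The sum stayed between 12.6 and 17.6 FPKM in all 24 libraries.

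CL2376 had 2 contigs and a score of 0.788, or 0.643 without male 6 h. Contig 2 had 7.7, 5.55 and 8.42 FPKM in female roots at 6 h, against 14.5, 14.5 and 15.3 in female control roots, while contig 1 had 10.1, 10.8 and 8.27 FPKM at 6 h, against 1.97, 1.47 and 1.47 in the control. In male roots at 24 h contig 2 had 2.32, 2.55 and 2.77 FPKM, against 18.1, 18.1 and 17.2 in male control roots, a log2 ratio of -2.59 (SE 0.432, limma adjusted p = 3.62e-05). Contig 1 had 22.9, 22.3 and 23.9 FPKM at 24 h, against 3.45, 3.9 and 4.36 in male control roots, a log2 ratio of 2.42 (SE 0.289, limma adjusted p = 5.87e-07). Contig 2 held 42.6% of the cluster in female roots at 6 h, 91.3% after 12 h and 90.7% at 24 h, against 90.0% in female control roots, and it held 9.96% in male roots at 24 h against 82.0% in male control roots.

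The largest change in contig shares was that of CL1383, 87.7% of the sum between female 24 h and male 12 h roots. Contig 13 had 141, 132 and 138 FPKM in female roots at 24 h and 1.02, 1.58 and 1.06 in male roots at 12 h. Contig 12 had 70.5, 70.2 and 72.1 FPKM in male roots at 12 h and was listed at 0 in all 9 female control, 12 h and 24 h libraries. Next came CL10760, with 84.4% between female control and male 24 h, CL11447 with 84.0% between male 12 h and male 24 h, CL2845 with 82.4% between female control and male 12 h, and CL2376 with 81.4% between female 12 h and male 24 h. Contig 15 of CL10760 had 22.9, 20.3 and 22.6 FPKM in male roots at 24 h and 20.1 in male 6 h replicate 2, and it was listed at 0 in the other 2 libraries of that group, in every male control library and in all 12 female libraries.

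**Figure D4:**
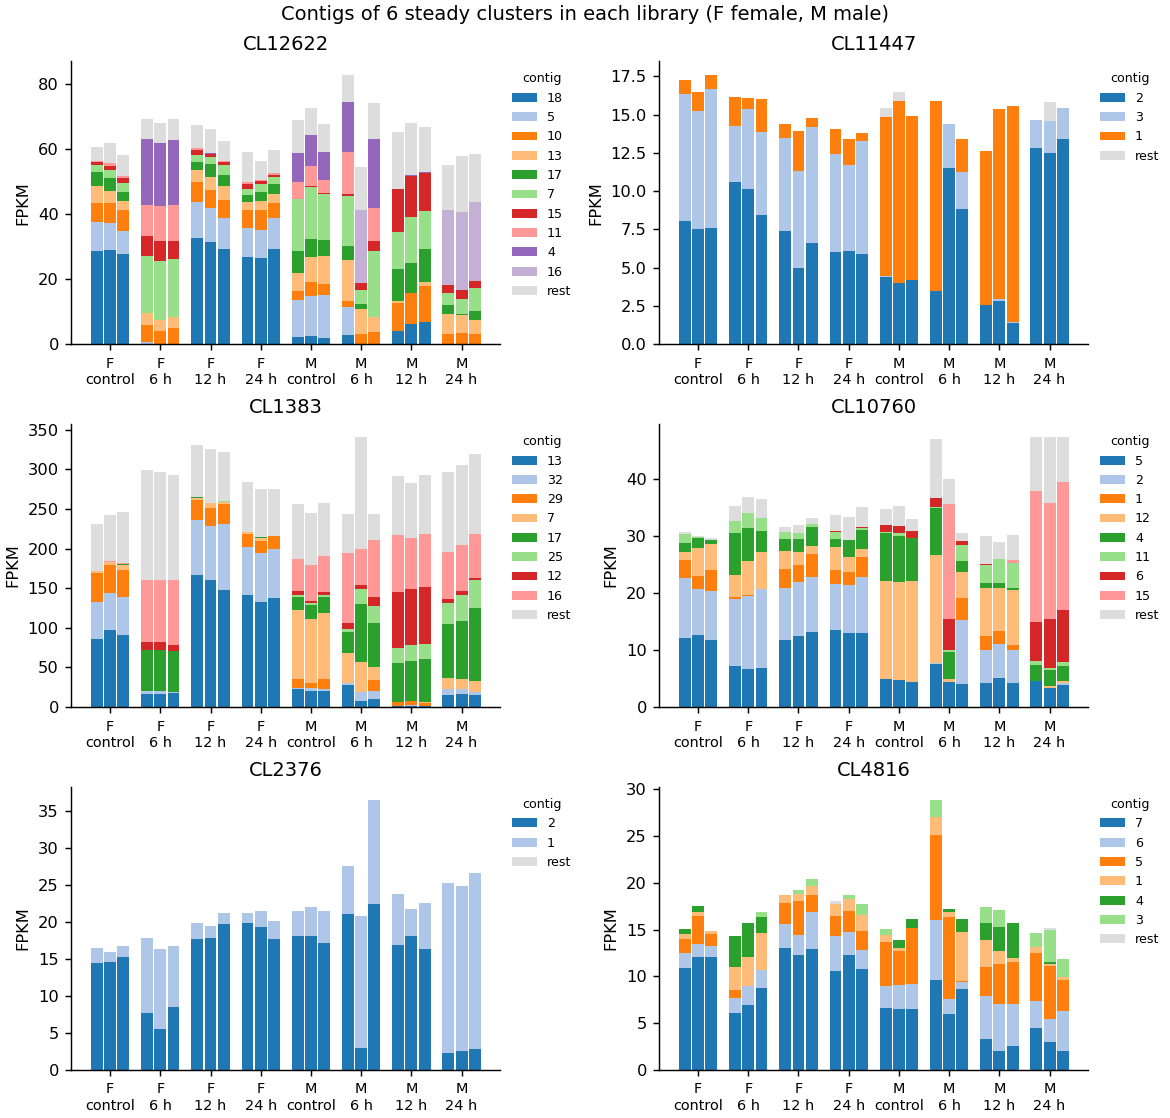
FPKM of the contigs of 6 steady clusters (colours, with contigs under 10% of the cluster in every group as rest) stacked to the cluster's sum in each of the 24 libraries (3 bars per group; F female, M male). The log2 span of the stack heights over the libraries ran from 0.478 in CL11447 (12.6 to 17.6 FPKM) to 1.28 in CL4816 (11.9 to 28.9 FPKM). The colours that fill the stacks change between groups and within male 6 h.

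Over all 200 clusters, the most abundant contig of the group means was the same in all 8 groups for 28 (14.0%), and for 570 of the other clusters past the limit (16.7%). For 45 members 2 different contigs led in the 8 groups, for 50 members 3, for 50 members 4, and for 27 members 5 or more, up to 7. CL6808 was one of the 28, with contig 2 leading in every group at 32.6% to 69.3% of the sum. The leading contig of a member held a median 31.3% of its sum, and 34.7% in the other clusters.

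The leading contig in female roots at 6, 12 and 24 h differed from that in female control roots for 119 (59.5%), 43 (21.5%) and 48 (24.0%) of the members. In male roots at 6, 12 and 24 h it differed from the male control for 86 (43.0%), 121 (60.5%) and 123 (61.5%). It differed between female and male control roots for 110 members (55.0%). The counts were low for female roots at 12 and 24 h and high for the other groups. The other clusters past the limit gave 57.1%, 17.8% and 22.0% in female roots, 41.5%, 56.7% and 58.6% in male roots, and 59.6% between the controls. Between single libraries of 1 group the leading contig differed for a mean of 12.0% to 18.5% of members, and for 60.5% in male 6 h. In the other clusters it differed for 10.4% to 15.35%, and for 54.2% in male 6 h.

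Many of these differences were between contigs of similar level. When a lead of at least 1.5 times over the next contig was required in both groups, 55, 91 and 83 members could be compared at 6, 12 and 24 h in female roots, and the leading contig differed in 18, 1 and 5. In male roots 48, 52 and 57 could be compared, and it differed in 4, 18 and 20. Between the controls it differed in 19 of 61. These members are a subset of the 200, so the counts could only be lower than those above, and the other clusters were not counted this way. The median share of a member's sum that moved between contigs was 35.7%, 8.87% and 11.6% at 6, 12 and 24 h in female roots, 22.2%, 36.4% and 38.3% in male roots, and 33.4% between the controls. In the other clusters past the limit it was 35.8%, 8.08% and 10.3% in female roots, 22.5%, 34.0% and 37.3% in male roots, and 36.1% between the controls. In the steady and the other clusters alike, female roots at 12 and 24 h were thus close to female control roots in contig make-up. Female roots at 6 h were not.

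**Figure D5:**
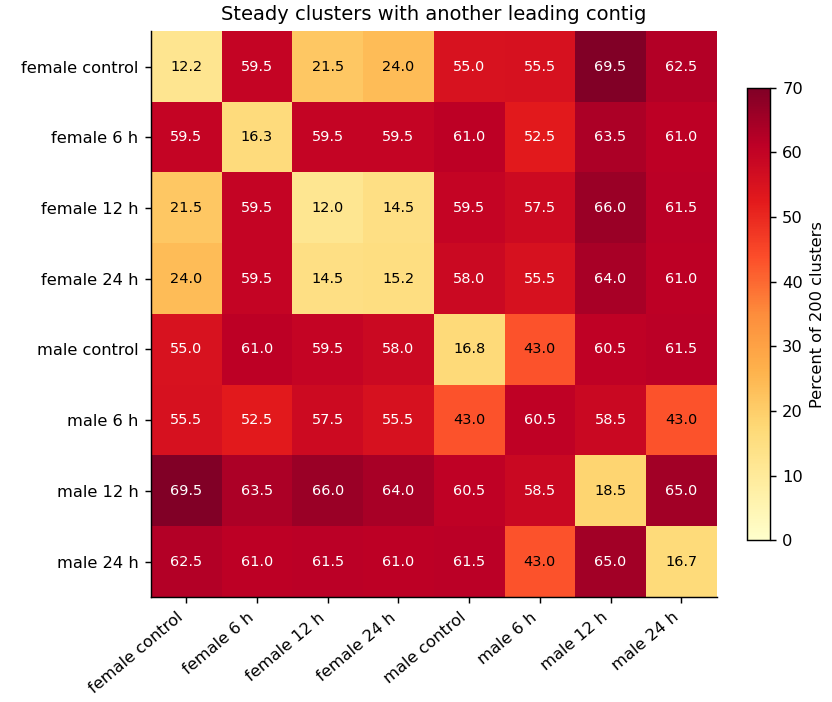
Percent of the 200 steady clusters whose most abundant contig differed between 2 groups (off the diagonal, group means) or between 2 libraries of 1 group (on the diagonal, mean of 3 pairs). Female control, 12 h and 24 h roots differ from each other in 14.5% to 24.0% of clusters, and male 6 h differs within itself in 60.5%.

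Few single contigs of the members passed the level limit with a score within that of the sums. The sums were chosen for low scores and the contigs were not, and the limit left out contigs of low level. The counts are thus a description, and the other clusters were not counted. A contig with at least 10 FPKM in all 8 groups was found in 36 members (56 contigs), and these contigs had a median score of 1.37. The 7 contigs of 6 members with a score within 0.824 were named after their values were seen. CL10340 contig 2 had the lowest score of these, 0.41, which is below the score of its own cluster (0.776). It had 22.5, 23.0 and 24.7 FPKM in female roots at 6 h, 24.7, 23.9 and 24.7 after 12 h and 24.5, 24.2 and 24.1 at 24 h, against 28.7, 26.3 and 29.3 in female control roots. It had 27.4, 22.5 and 16.5 FPKM in male roots at 6 h, 23.1, 23.7 and 22.4 after 12 h and 26.9, 26.2 and 25.8 at 24 h, against 26.9, 30.5 and 30.8 in male control roots. The other 6 were contig 2 (0.633) and contig 1 (0.759) of CL20535, contig 5 of CL6780 (0.66), contig 1 of CL12247 (0.68), contig 17 of CL356 (0.716) and contig 6 of CL10793 (0.745). Contig 6 of CL10793 held 72.8% to 91.8% of its cluster, and contig 2 of CL20535 77.3% to 81.2%, so these clusters were steady without an exchange of their main contig.

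The clusters with a protein match in the sources used here were the 54 clusters of the study's salt-responsive and reactive oxygen lists, which were chosen for their response in these libraries and so are not independent of the score. Of these, 21 passed the level limit, and 1 was among the 200. This was CL4816, matched to calmodulin-binding receptor-like cytoplasmic kinase 2, in *Arabidopsis thaliana* a protein kinase that binds the calcium sensor calmodulin. It took place 35 with a score of 0.578, or 0.484 without male 6 h. The next lowest was CL4774, matched to a glutathione S-transferase, an enzyme family of detoxification, at place 1315 with a score of 1.65. The 21 had a median score of 2.56, and 18 of the 21 lay above the middle of the 3618 places.

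CL4816 had 14.3, 15.7 and 16.9 FPKM in female roots at 6 h, 18.7, 19.2 and 20.4 after 12 h and 18.0, 18.7 and 17.8 at 24 h, against 15.0, 17.5 and 14.8 in female control roots. It had 28.9, 17.2 and 16.2 FPKM in male roots at 6 h, 17.5, 17.1 and 15.7 after 12 h and 14.6, 15.2 and 11.9 at 24 h, against 15.1, 13.9 and 16.2 in male control roots. The female libraries at 12 and 24 h lay above the female control, and male 6 h replicate 1 was the highest of the 24. The log2 ratios to control at 6, 12 and 24 h were -0.01, 0.29 and 0.20 for females and 0.41, 0.15 and -0.11 for males (SE 0.161). None was called by limma, with adjusted p-values from 0.053 (male 6 h) to 0.995 (female 6 h). After median-of-ratios scaling limma called 4 of the 6, at 24 h in female roots (0.71) and at 6, 12 and 24 h in male roots (0.83, 0.96 and 1.07).

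Its contigs moved more than its sum. Contig 7 held 46.2%, 65.8% and 61.5% of CL4816 in female roots at 6, 12 and 24 h, against 74.0% in female control roots, and 39.1%, 15.6% and 22.7% in male roots, against 43.4% in male control roots. It had 3.28, 2.04 and 2.5 FPKM in male roots at 12 h, against 6.57, 6.48 and 6.5 in male control roots, a log2 ratio of -1.19 (SE 0.219, limma adjusted p = 8.4e-05) that was -0.45 after median-of-ratios scaling (limma adjusted p = 0.13). Contig 4 of CL4816 had a log2 ratio of 2.01 (SE 0.438, limma adjusted p = 0.000529) in female roots at 6 h, with 3.27, 3.63 and 1.71 FPKM against 0.44, 0.62 and 0.0 in female control roots. Contig 1 of CL4816 had one of 1.94 (SE 0.486, limma adjusted p = 0.00181), with 2.5, 3.05 and 3.96 FPKM against 0.6, 0.46 and 0.29. These control values lie near the 0.5 FPKM added before taking logs, so both ratios depend on it.

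SlActin (CL19537), an actin gene that served as internal reference in the study's quantitative PCR, passed the level limit and took place 3568 of 3618 with a score of 5.17. It had 143, 139 and 141 FPKM in female roots at 6 h, 57.1, 56.5 and 54.6 after 12 h and 15.9, 16.5 and 15.6 at 24 h, against 336, 370 and 377 in female control roots. It had 14.4, 23.5 and 87.3 FPKM in male roots at 6 h, 56.1, 56.9 and 59.3 after 12 h and 10.3, 9.72 and 10.1 at 24 h, against 40.4, 37.6 and 61.1 in male control roots. Applied to FPKM relative to SlActin, the rule chose 0 of the 200 clusters, and the score of the last cluster chosen was 3.68.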

How the data were processed

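RNA-seq of roots was analysed in 24 libraries. The authors assembled the reads with Trinity and deposited FPKM for 253209 contigs and single unigenes. The methods name RPKM. The sources used here give no aligner, quantifier or read numbers. FPKM was used as deposited. The contigs of each of 20753 clusters were summed. The clusters and the gene lists were chosen with earlier results of these data known.

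Values were tested on log2(FPKM + 0.5), a scale that understates changes of low values, where 3 libraries or more reached 1 FPKM (95202 genes, 181249 rows). The test was limma (version 3.58.1, R version 4.3.3; functions lmFit and contrasts.fit, then eBayes with a trend), as 1 model of 8 group means over all libraries. P-values were adjusted by Benjamini-Hochberg within a comparison. Contig shares, leading contigs and scores are descriptions. A test on simulated data was run first.

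Named clusters were the 10 of lowest score, 3 on each side of the limit, 5 of highest level, 5 with most contigs, 5 with the largest change in contig shares, 3 with the widest male 6 h spread, 3 with the smallest adjusted p, and the listed clusters with a protein match. Scaling by the median of ratios, pseudocounts of 0.1 and 1, other filters, a replicate block, fits on the compared groups and each replicate left out were tried. Tables were handled with data.table (version 1.17.8), Python 3.11.15, numpy 2.4.6, pandas 2.3.3 and matplotlib 3.10.9. No sequence of the members was used here.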

Additional observations from a re-analysis of the deposited data

Results flagged for a closer look

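For the 3 members with the smallest adjusted p-values, the difference between the female and the male response to NaCl (female minus male, log2 scale) was taken from the interaction term of the same limma model, adjusted over 95202 genes. These members were picked for a ratio to control in male roots that enters the interaction at the same time, and the rule used the same group means, so the values describe these libraries and are not a test of a sex difference. For CL2705 the difference was -0.64 at 6 h (SE 0.102, adjusted p = 2.94e-05), 0.10 at 12 h (adjusted p = 0.416) and -0.61 at 24 h (SE 0.102, adjusted p = 7.53e-05). Its log2 ratios at 6 and 24 h were -0.12 and 0.15 for females and 0.52 and 0.76 for males. For CL1563 it was -0.14 at 6 h (limma adjusted p = 0.268), 0.65 at 12 h (SE 0.102, adjusted p = 2.66e-05) and 0.05 at 24 h (adjusted p = 0.721), with log2 ratios at 12 h of -0.15 in female and -0.79 in male roots. For CL3466 it was -0.21 at 6 h (limma adjusted p = 0.121), -0.36 at 12 h (SE 0.113, adjusted p = 0.0118) and -0.09 at 24 h (adjusted p = 0.555), with 0.43 in female and 0.78 in male roots at 12 h. After median-of-ratios scaling the differences of CL2705 at 6 and 24 h were -1.03 and -1.31 and that of CL3466 at 12 h was -1.04, while that of CL1563 at 12 h turned to -0.04 (limma adjusted p = 0.859). The differences not called on the deposited scale were called after scaling, with limma adjusted p-values from 3.62e-05 to 0.00405. They were -0.58 for CL2705 at 12 h, and -0.52 and -0.64 for CL1563 at 6 and 24 h. For CL3466 they were -0.60 and -0.79 at 6 and 24 h. The 6 h value of CL2705 rests on the male 6 h libraries, which had 105, 99.1 and 111 FPKM. The cause of the differences was not tested.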

How the results depend on the processing

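Of the 200 clusters, 131 were chosen with a level limit of 20 FPKM, 10 with median-of-ratios scaling, 0 relative to SlActin, and 27 with the most abundant contig alone; 154 to 192 were chosen under a limit of 5 FPKM, the standard deviation or the span of 24 libraries as score, means of log2 values, the same summed FPKM, or no male 6 h. The last score chosen was 0.799 at 5 FPKM, 0.951 at 20 FPKM, 1.02 over 24 libraries, 0.642 with median-of-ratios scaling, 0.856 with the same sum, 3.68 relative to SlActin, 1.84 with 1 contig, and 0.818 to 0.846 with a replicate left out, where 174 to 181 clusters were kept. A standard deviation has another scale, so its limit is not set beside these.

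Summed clusters called were 154, 145 and 156 (female 6, 12 and 24 h), 160 (male 12 h) and 133 (controls) without male 6 h. On the compared groups alone they were 137 (female 12 h, where 38232 of 88143 genes were called), 156 (female 24 h, 48993 of 88580), 0 (male 6 h, 10420 of 85900) and 131 (controls, 54497 of 89113). At an adjusted p of 0.01 they were 46 (female 12 h, 22127 of 95202 genes), 40 (male 6 h, 27964) and 36 (controls, 37286). With median-of-ratios scaling they were 130, 169 and 199 (male 6, 12 and 24 h) and 113 (controls). Of 92855 genes, 31393, 51973, 40582 and 40989 were called there. With a replicate left out they were 42 to 51 at female 12 h and 30 to 47 between controls. Without replicate 1, 2 or 3, 17386 of 72239, 17970 of 71367 and 17919 of 70808 genes were called at female 12 h. Between controls 30111, 31047 and 31576 genes were. Contigs called were 68 (adjusted p of 0.01) and 47 (pseudocount 1) at female 12 h, and 133 (pseudocount 1) at female 24 h. In the same order 27863, 26252 and 38080 of 181249 rows were called. At male 6 h 40 contigs were called on the compared groups alone, where 13981 of 168993 rows were. With a replicate left out 312 to 618 were called at male 6 h. Without replicate 1, 2 or 3, 49236 of 144559, 47183 of 143731 and 42508 of 142590 rows were. With a lead of 1.5 times, leading contigs differed in 18, 1, 5, 4, 18, 20 and 19 members (female 6, 12 and 24 h, male 6, 12 and 24 h, controls). The causes were not tested.

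In the same order of comparisons, with a replicate block 99, 68, 100, 59, 104, 119 and 58 summed clusters were called. Of all 95202 genes 57564, 29028, 40696, 37532, 54199, 43326 and 46128 were. The contigs called were 1006, 97, 221, 533, 1048, 1074 and 942. Of all 181249 rows 90074, 33450, 50645, 57245, 93317, 81363 and 74965 were called. No count of members or their contigs moved by over 1.5 times. Deviations of libraries with the same number had correlations across genes from -0.01 to 0.006. No pairing by number was thus seen, though a correlation over all genes, many of low level, cannot exclude one. Leaving out male 6 h for the leading contig in all groups (29 members) and for single steady contigs (7 members), and fitting male 6 h with its control alone for contigs in both directions (2 members), was chosen after seeing the data. Without read numbers, counting error could not be given, and low contigs have the least precise ratios.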
